A study of Mus musculus with 16 samples.

Results

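Prlr, Cish, Socs2, Tph1, Tph2, Matn2 and Lrrc55, which encode the prolactin receptor, a pair of inhibitors of its signal, both tryptophan hydroxylases, a matrix protein and a potassium channel subunit, were followed by symbol in the RNA of isolated mouse pancreatic islets. The 7 genes were found in both deposited tables, among 17864 genes listed in either table, and were read in all 16 libraries. They had been chosen from measured values of these libraries, namely their levels in the cKO libraries and in the library labelled Flox16 against the other Flox libraries. Their levels and fold changes are therefore given as a description, without a test.

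The study asked how B7-H4, the checkpoint protein encoded by Vtcn1, acts in β cells, and whether Stat5 is involved. Flox mice (n = 4 libraries, Flox16, Flox17, Flox20 and Flox21) were homozygous for the floxed B7-H4 allele (B7-H4 fl/fl), with exon 2 of Vtcn1 between loxP sites, on a C57BL/6J background. B7-H4 cKO mice (n = 4, cKO8, cKO9, cKO12 and cKO38) carried the same alleles and the Rip-Cre transgene Tg(Ins2-cre)25Mgn, which drives Cre recombinase in β cells from the rat insulin II promoter. Both groups were fed normal chow, and their age and sex are not given in the sources used here. A second experiment used obese mice, described as WT with the deposited data and as Flox in the study's methods. They were 6 weeks old at the start, were fed a high-fat diet (HFD) for 8 weeks, and then received an AAV8 or AAV2/8 virus through the pancreatic duct. The virus carried B7-H4 with ZSGreen under the rat insulin 2 promoter (H-ins2-O, called OE here, n = 4) or was a control virus (H-ins2-C, called Ctrl here, n = 4), and islets were taken 5 weeks later. The Rip-Cre transgene is absent from the Flox controls and no group had Rip-Cre alone, so that the loss of B7-H4 and the presence of the transgene cannot be told apart. As background, this transgene is known to carry a human growth hormone minigene, and human growth hormone is able to bind the mouse prolactin receptor. Transcripts of the transgene were not analysed here.

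Prolactin and placental lactogens bind Prlr on the β cell, the kinase Jak2 is activated, and the transcription factors Stat5a and Stat5b are phosphorylated and move to the nucleus. Cish and Socs2 are textbook Stat5 targets whose proteins damp the same signal. In the islets of pregnant mice this pathway is known to switch on Tph1, the rate-limiting enzyme of serotonin synthesis outside the brain, and serotonin from β cells then acts on their growth and insulin secretion.

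The Stat5 consensus TTCNNNGAA was searched on both strands of the RefSeq promoter sequences of GRCm38.p6, each running from 250 bases before to 50 bases after an annotated start. The motif reads the same on both strands. It was present in 2726 of 32851 promoters (8.30%), and 150 (0.457%) held 2 or more. Cish had 2 sites, which begin at bases 1 and 12 of its transcript (chr9:107296654-107296683, plus strand), and the promoter of the second of 3 Prlr starts had 1 site, 110 bases before the start (chr15:10223791-10223820, plus strand). These windows are shown because they hold every match among the promoters of the 7 genes that the table lists, with the motif in capitals.
Cish: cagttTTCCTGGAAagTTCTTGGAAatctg
Prlr: atgagTTCTAGGAAtaagggatatcagagg
The promoters of Tph1 (2 starts), Tph2 and Lrrc55 held no match to these letters, and Socs2 and Matn2 were not matched in the promoter table. The 250 bases before the first Tph1 start (chr7:46672538-46672787, minus strand) and those before the Lrrc55 start (chr2:85198751-85199000, minus strand) are given next, since these genes had the widest range of levels.
Tph1: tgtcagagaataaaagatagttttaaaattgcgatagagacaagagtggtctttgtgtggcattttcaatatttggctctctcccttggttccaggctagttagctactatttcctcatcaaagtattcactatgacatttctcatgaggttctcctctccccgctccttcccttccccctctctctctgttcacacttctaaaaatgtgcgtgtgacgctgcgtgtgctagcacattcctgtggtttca
Lrrc55: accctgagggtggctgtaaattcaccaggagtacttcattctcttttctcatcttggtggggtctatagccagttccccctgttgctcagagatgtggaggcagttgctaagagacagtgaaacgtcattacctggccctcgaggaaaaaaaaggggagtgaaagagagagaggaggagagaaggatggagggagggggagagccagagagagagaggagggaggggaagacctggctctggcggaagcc
A match is a description of letters and not evidence of binding, and no binding data were analysed here.

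Values are FPKM, fragments per kilobase of transcript scaled to the mapped reads, which the authors calculated separately for the chow and the HFD table. The number of reads is unknown, so no counting error can be given. Relative depth was estimated from the commonest ratio of a library to the first library of its table, over genes under 0.1 FPKM in both. It was 0.943 to 1.08 of the median of the chow table and 0.841 to 1.08 in the HFD table. Islet libraries also held RNA of the surrounding exocrine pancreas. The share of 18 acinar enzyme and secretory genes in the summed FPKM was 33.3% to 42.2% in cKO, 6.78% to 32.6% in Flox, 2.01% to 68.8% in Ctrl and 10.3% to 13.3% in OE libraries. β-cell genes, which define the labelled tissue, made up 25.8% to 32.9%, 35.4% to 54.8%, 4.38% to 55.2% and 47.1% to 51.2% in the same order. Their lowest share belonged to Ctrl3, the library with most acinar RNA. In RNA of a whole islet, fewer cells of a type and less RNA per cell cannot be told apart.

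The library labelled Flox16 differed from the other Flox libraries in the members, which were chosen for that, and in Y-linked transcripts. Its levels lay in or above the cKO range for 6 of the 7 genes and, for Tph1, 1.03 times below the lowest cKO value. Transcripts of the Y chromosome were almost absent there, with Ddx3y at 0.0328 FPKM against 12.9, 16.4 and 18.4 FPKM in Flox17, Flox20 and Flox21 and 8.11 to 9.72 FPKM in the cKO libraries. Eif2s3y and Uty were listed at 0 there and Kdm5d at 0.0109 FPKM. Of these 4 Y-linked genes, 0 were listed for the HFD libraries, where Tph1 was at 0 to 0.170 FPKM. Vtcn1 was at 0.0188 to 0.216 FPKM over the 8 chow libraries, too low to check any genotype. Values of the members are given with Flox16 and without it, as are the counts of the gene lists, and the part of sex or of a mislabelled library in the difference was not tested. In the HFD table Vtcn1 rose from 0.0636 to 0.371 FPKM in Ctrl to 40.0 to 128 FPKM in OE (log2 fold change 6.53, standard error (SE) 0.46, limma adjusted p = 5.48e-08, n = 4 per group), in the direction of its label.

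**Figure D1:**
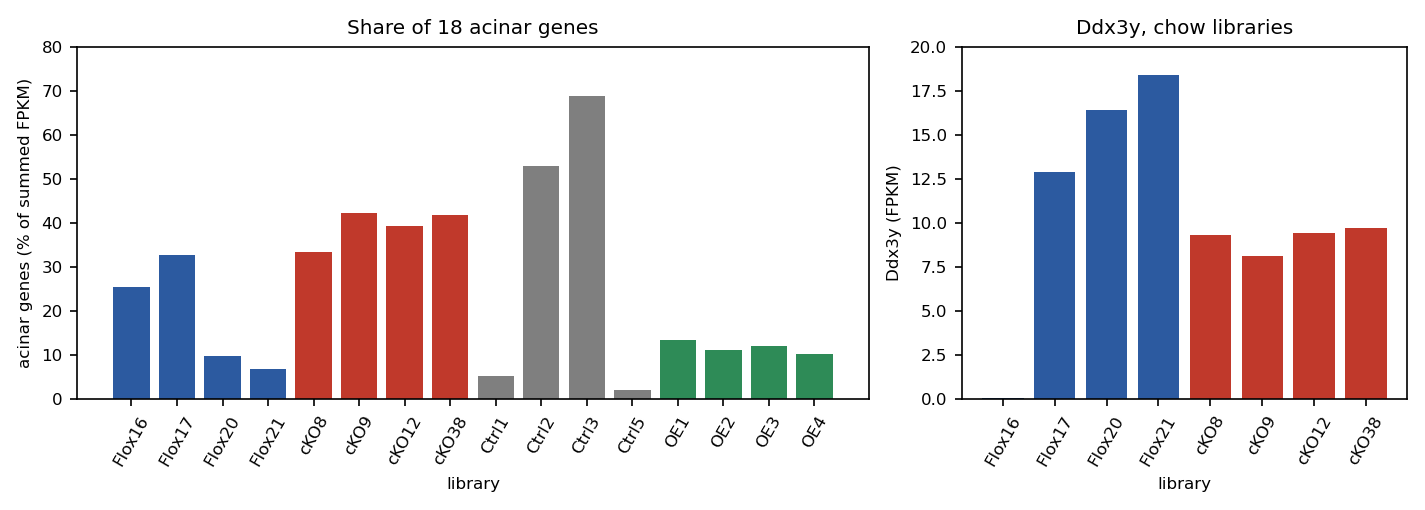
Share of 18 acinar genes in the summed FPKM of each of the 16 libraries (left, percent) and FPKM of the Y-linked gene Ddx3y in the 8 chow libraries (right), 1 bar per library. Acinar shares run from 2.01% to 68.8% in Ctrl libraries and from 10.3% to 13.3% in OE libraries, and Ddx3y is at 0.0328 FPKM in Flox16 against at least 8.11 FPKM in the other chow libraries.

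Prlr, the receptor (chr15:10177238-10349180, plus strand), was at 48.9, 44.3, 41.3 and 43.1 FPKM in cKO8, cKO9, cKO12 and cKO38. It was at 63.1 FPKM in Flox16 and at 21.6, 35.2 and 34.1 FPKM in Flox17, Flox20 and Flox21. The cKO libraries lay within the range of the 4 Flox libraries and above the other 3 once Flox16 was left out, by a narrow margin, the lowest cKO value being 1.17 times the highest of those Flox values. The mean was 44.4 ± 3.24 FPKM (SD, n = 4) in cKO and 30.3 ± 7.56 FPKM (SD, n = 3) in Flox without Flox16. On log2(FPKM + 0.5), which understates the change of low genes, the fold change was 0.30 (SE 0.25) with all 4 Flox libraries and 0.57 (SE 0.20) without Flox16, and 0.68 (SE 0.25) with all 4 after median-of-ratios scaling. When each value was divided by the share of FPKM outside the acinar genes, the distance was wider, with Prlr at 68.1 to 76.7 in cKO, 84.6 in Flox16 and 32.0 to 39.0 in the other Flox libraries.

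In the HFD table Prlr was at 28.7, 17.3, 3.45 and 15.0 FPKM in Ctrl1, Ctrl2, Ctrl3 and Ctrl5, and at 34.8, 23.4, 28.5 and 20.8 FPKM in OE1 to OE4. The groups overlapped, with 1 of 4 OE libraries above every Ctrl library. The log2 fold change was 1.01 (SE 0.54), against a median of 0.44 over all 12132 genes tested. Ctrl3 was the lowest library, and acinar genes made up 68.8% of its FPKM. Without Ctrl3 the log2 fold change was 0.42 (SE 0.34), against a median of 0.11 over all genes in that fit.

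Cish (chr9:107296026-107302784, plus strand), an SH2 protein that competes for docking sites on activated receptors, was at 42.9, 44.1, 54.4 and 38.5 FPKM in the cKO libraries. It was at 56.9 FPKM in Flox16 and at 3.78, 12.1 and 8.81 FPKM in Flox17, Flox20 and Flox21. Flox16 was thus the highest of the 8 chow libraries, and without it the groups were separated by a factor of 3.19 between the nearest libraries. Means were 45.0 ± 6.75 FPKM (SD, n = 4) in cKO and 8.22 ± 4.18 FPKM (SD, n = 3) in the remaining Flox libraries, a ratio of 5.47. The log2 fold change was 1.79 (SE 0.78) with Flox16 and 2.51 (SE 0.30) without it.

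Socs2 (chr10:95385362-95417180, minus strand), a brake best known for growth hormone signalling, divided the chow libraries into the same sets at lower levels. It was at 6.32, 7.80, 8.10 and 6.88 FPKM in cKO, 8.33 FPKM in Flox16 and 1.21, 2.36 and 2.41 FPKM in the other Flox libraries. The ratio of means without Flox16 was 3.65, and the log2 fold change was 1.21 (SE 0.46) with all 4 Flox libraries and 1.68 (SE 0.22) without Flox16. Across the 8 chow libraries, which fall in separate sets, log2 values of Cish and Socs2 had a Pearson r of 0.992.

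In HFD-fed mice Cish and Socs2 stood near the lower chow levels. Cish was at 3.05, 11.7, 3.36 and 12.1 FPKM in Ctrl and 19.0, 14.4, 13.6 and 6.62 FPKM in OE libraries, with 3 of 4 OE libraries above all of Ctrl. Socs2 was at 2.88, 1.57, 0.651 and 3.09 FPKM in Ctrl and 3.05, 2.95, 3.04 and 2.73 FPKM in OE, where the OE libraries lay inside the Ctrl range. Log2 fold changes were 0.95 (SE 0.52) for Cish and 0.57 (SE 0.43) for Socs2, both within 1 SE of the median of all genes. Without the acinar-rich Ctrl2 and Ctrl3, Cish was at 0.97 and Socs2 at -0.02. Socs2 levels per FPKM outside the acinar genes ran from 2.09 to 3.35 in Ctrl and from 3.04 to 3.52 in OE.

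Tph1 (chr7:46644641-46672537, minus strand) was the gene with the widest range. It was at 116, 149.6, 121 and 146 FPKM in cKO8, cKO9, cKO12 and cKO38 and at 112 FPKM in Flox16. The other Flox libraries were at 0.0885, 0.0318 and 0.0730 FPKM. In Flox17, Flox20 and Flox21 the gene was therefore near the smallest values that a library lists, and in the other 5 chow libraries it was an abundant transcript, above Prlr in each of them on the same per-length scale. Tph1 was the 1 member whose cKO and Flox ranges did not overlap with all 4 Flox libraries, and the lowest cKO value was then 1.03 times that of Flox16. Among all 11804 genes tested, 1.32% were higher in cKO without overlap. The log2 fold change was 5.97 (SE 1.88) with Flox16 and 7.88 (SE 0.21) without it, where the ratio of means was 2064.

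Tph1 stayed near the floor in the HFD table. It was listed at 0 in Ctrl1, Ctrl3 and Ctrl5 and at 0.0189 FPKM in Ctrl2, and at 0.170, 0.0432, 0.0746 and 0.0366 FPKM in the OE libraries. All 4 OE values were above all 4 Ctrl values, as were those of 5.61% of the genes tested. A mean of 0.5 FPKM was needed for the test, so Tph1 was left out of it, and the fit of every gene gave a log2 fold change of 0.20 (SE 0.07).

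Tph2 (chr10:115078641-115185022, minus strand), the form of the enzyme known from brain, was low in every library. It was at 4.29, 4.32, 3.69 and 4.13 FPKM in cKO, 4.35 FPKM in Flox16 and 0.208, 1.29 and 1.89 FPKM in the other Flox libraries. The libraries fell into the same sets as for Tph1, but the distance between the nearest libraries without Flox16 was 1.95 times, against 1311 times for Tph1. Log2 fold changes were 1.23 (SE 0.55) with Flox16 and 1.67 (SE 0.33) without it. In HFD-fed mice Tph2 was at 0.890, 0.475, 0.175 and 1.65 FPKM in Ctrl and 1.09, 0.399, 0.692 and 0.549 FPKM in OE, with a log2 fold change of -0.03 (SE 0.38), and the groups overlapped.

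**Figure D2:**
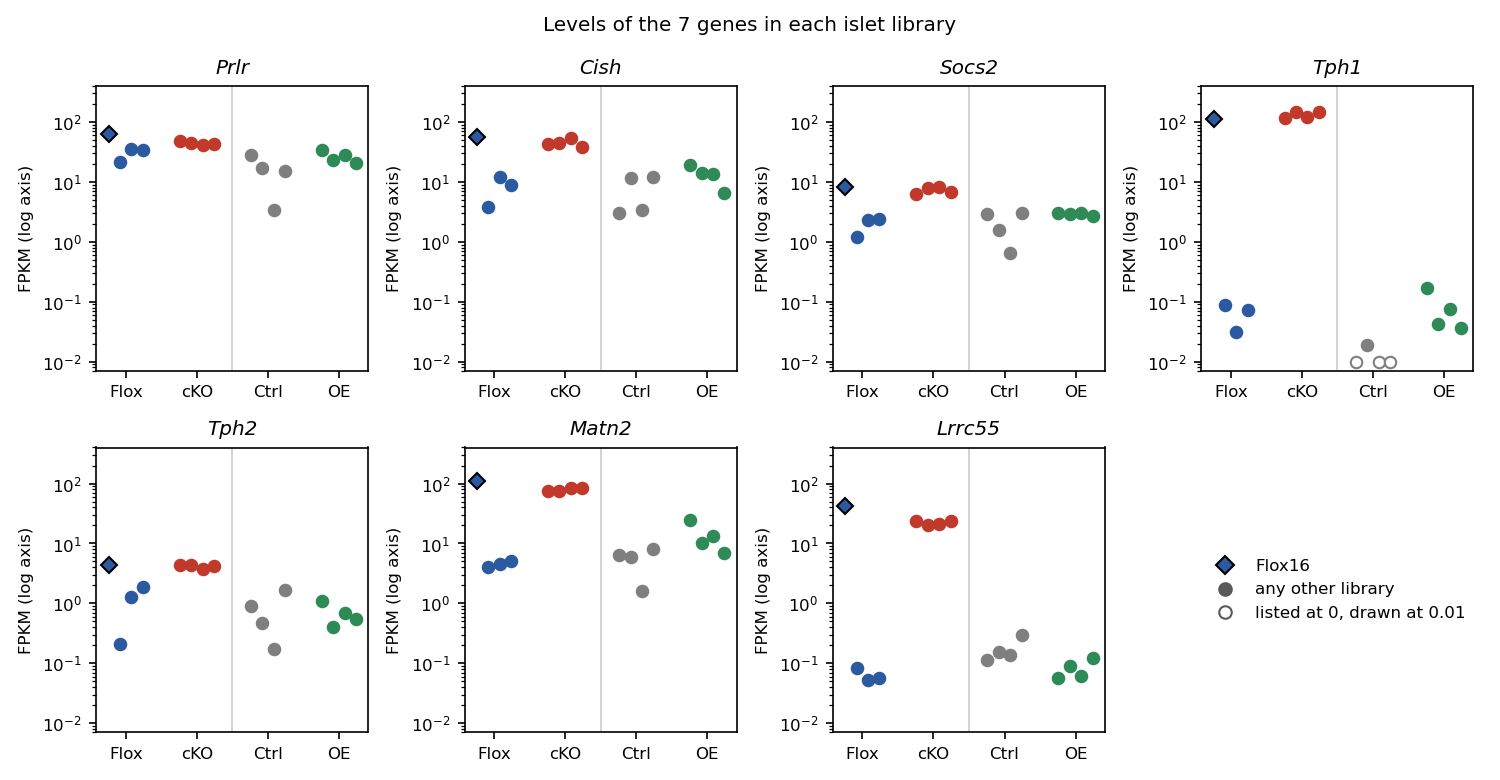
FPKM of the 7 genes (log axis) in each of the 16 libraries, 1 point per library and 1 panel per gene, with Flox16 as a diamond and values of 0 as open circles drawn at 0.01. Tph1 is at 112 to 149.6 FPKM in the cKO libraries and Flox16 and below 0.2 FPKM in the other 11 libraries, whereas Prlr overlaps between groups.

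Matn2 (chr15:34306677-34436273, plus strand) encodes matrilin-2, an adaptor protein of the extracellular matrix. It was at 75.7, 76.2, 85.8 and 85.2 FPKM in cKO, 109.6 FPKM in Flox16 and 4.05, 4.46 and 5.02 FPKM in the other Flox libraries. Flox16 was the highest library, and the other 3 Flox libraries were close to each other at 4.51 ± 0.486 FPKM (SD, n = 3). The log2 fold change was 2.91 (SE 1.10) with Flox16 and 4.02 (SE 0.19) without it, with a ratio of means of 17.9. In the HFD table Matn2 was at 6.35, 5.97, 1.63 and 8.23 FPKM in Ctrl and 24.8, 10.3, 13.3 and 7.06 FPKM in OE. With 3 of 4 OE libraries above all Ctrl libraries, its log2 fold change of 1.28 (SE 0.52) was the largest of the 5 members fitted there, and it was 0.79 after median-of-ratios scaling.

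Lrrc55 (chr2:85162334-85197197, minus strand) encodes an auxiliary subunit of BK channels, the potassium channels opened by calcium and voltage. It was at 23.6, 20.5, 21.5 and 23.4 FPKM in cKO and 42.9 FPKM in Flox16, about as even among the cKO libraries as any member, with an SD of 1.52 on a mean of 22.2 FPKM (n = 4). The other Flox libraries were at 0.0832, 0.0534 and 0.0557 FPKM. Like Tph1 it passed from near the floor to over 20 FPKM, with a log2 fold change of 3.76 (SE 1.54) with Flox16 and 5.33 (SE 0.21) without it. In the HFD table Lrrc55 was at 0.115, 0.154, 0.138 and 0.30 FPKM in Ctrl and 0.0556, 0.0895, 0.0614 and 0.121 FPKM in OE. These values are too low for the test, and 3 of 4 OE libraries were below all Ctrl libraries.

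Over the 7 genes, levels were close among the cKO libraries and spread over the Flox libraries, which restates how these genes were chosen. Coefficients of variation ran from 6.82% (Lrrc55) to 15.0% (Cish) in cKO, and from 45.5% (Prlr) to 199.5% (Tph1) over the 4 Flox libraries. None of the 7 genes met both thresholds in cKO against Flox with all 4 libraries (a log2 change beyond 1 in either direction at an adjusted p under 0.05), which 1.31% of the genes tested did. Without Flox16 the cKO range was above the Flox range for each of the 7 genes, as it was for 3.86% of the genes tested. Both shares are stated beside a choice of genes made on these libraries, and nothing is read from them. The acinar share differed between the groups as well, and with its log2 value as a covariate in the fit of all 8 libraries the log2 fold changes of the members ran from 0.35 (Prlr, SE 0.42) to 3.80 (Tph1, SE 2.58). In the HFD table, 0.033% of 12132 genes met both thresholds and none of the members did.

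**Figure D3:**
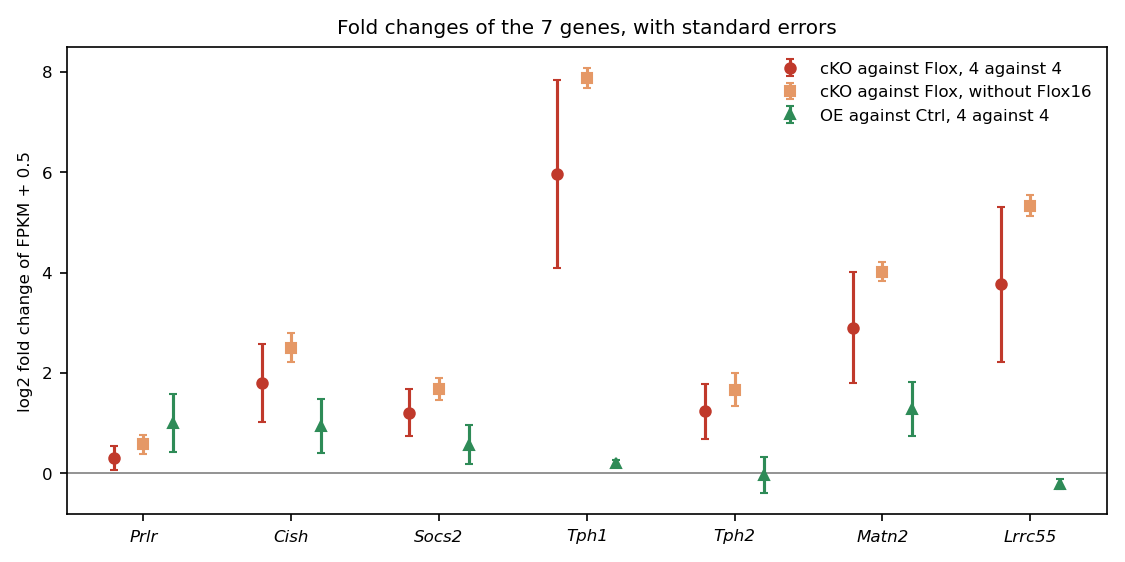
Log2 fold changes of FPKM + 0.5 (points) with standard errors (bars) of the 7 genes for cKO against Flox with all 4 libraries, the same without Flox16, and OE against Ctrl, where Tph1 and Lrrc55 come from the fit of every gene. Tph1 runs from 5.97 ± 1.88 with Flox16 to 7.88 ± 0.21 without it, and OE against Ctrl values lie between -0.21 and 1.28.

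Genes whose levels followed those of Tph1 were ranked by Pearson's r of log2(FPKM + 0.5) over the 16 libraries, each table centred on its own mean, among 10388 genes. Of the 10 highest, 9 are given here, which were Ehhadh (r = 0.928), Pdzrn3 (0.924), Tnfrsf11b (0.911), Matn2 (0.908), Ivd (0.903), Mpst (0.898), Fmo1 (0.884), Slc39a11 (0.883) and Gfra3 (0.875). Socs2 and Cish ranked 18 and 19 with r of 0.815 and 0.797, and Prlr ranked 395 with r of 0.333. The chow libraries fall in separate sets for these genes, so that r measures mainly that separation. The ranking depended on the scaling and the table. By Spearman's rho 6 of the 10 genes were kept, after median-of-ratios scaling 3, in the chow table alone 2, Matn2 and Gfra3, and in the HFD table alone 1, which was Matn2. After median-of-ratios scaling Socs2 ranked 1, with r of 0.983, and Cish 53, with r of 0.848.

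Ehhadh, a peroxisomal enzyme of fatty acid oxidation, was at 18.7 to 23.5 FPKM in cKO, 26.7 FPKM in Flox16, 5.16 to 6.29 FPKM in the other Flox libraries and 2.77 to 7.30 FPKM over the HFD libraries. Tnfrsf11b, which encodes osteoprotegerin, a decoy receptor for RANKL, was at 18.2 to 24.2 FPKM in cKO, 27.4 FPKM in Flox16 and 1.48 to 2.08 FPKM in the other Flox libraries. Ivd, an enzyme of leucine breakdown, was at 127 to 144 FPKM, 150.5 FPKM and 30.8 to 47.7 FPKM in that order. In each of these genes Flox16 was the highest chow library. Gfra3, the co-receptor for artemin, was at 16.1 to 27.0 FPKM in cKO, 20.4 FPKM in Flox16 and 0.752 to 1.11 FPKM in the other Flox libraries, so that here Flox16 lay within the cKO range. Mpst, a sulfurtransferase, was the flattest of these genes, at 4.66 to 5.32 FPKM in cKO, 4.28 FPKM in Flox16 and 2.23 to 2.90 FPKM in the other Flox libraries.

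**Figure D4:**
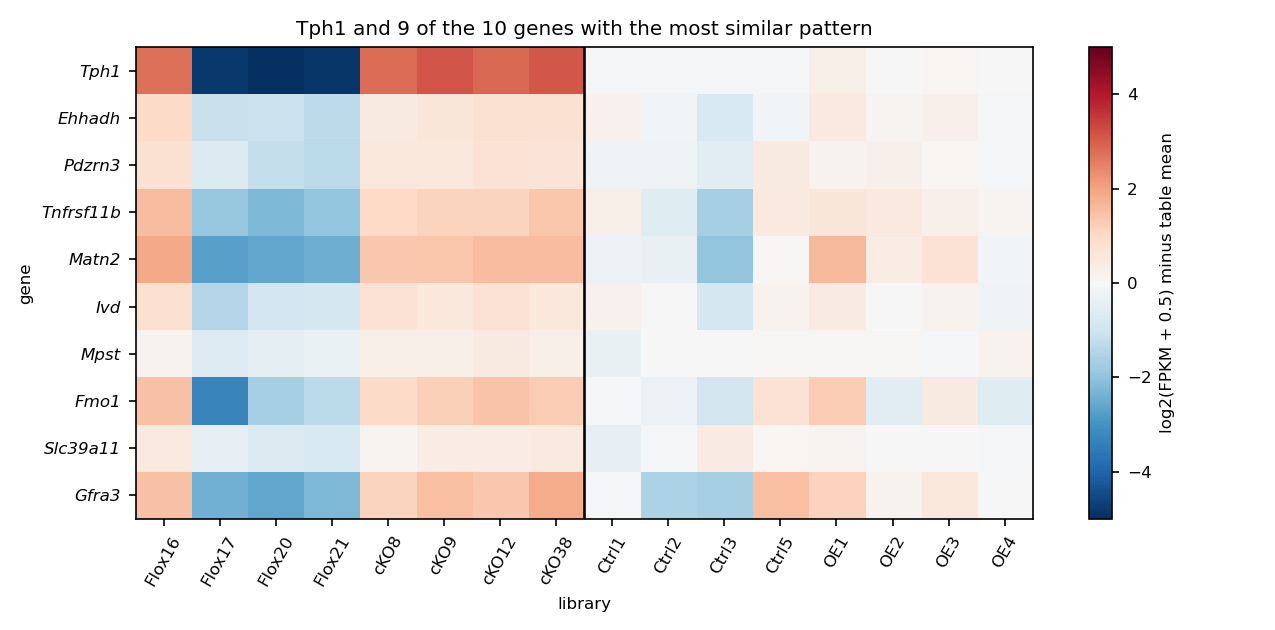
Log2(FPKM + 0.5) minus the mean of its table for Tph1 and 9 of the 10 genes most like it by Pearson's r, in each of the 16 libraries, chow libraries left of the line and HFD libraries right of it. Each row is above its table mean in Flox16 and the 4 cKO libraries and below it in Flox17, Flox20 and Flox21, with r to Tph1 from 0.875 (Gfra3) to 0.928 (Ehhadh).

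By library, 359 of the 11804 genes tested (3.04%) were higher in all 4 cKO libraries and Flox16 than in Flox17, Flox20 and Flox21, and 30 (0.254%) by more than 10 times. Of the members, Tph1, Lrrc55 and Matn2 were among these 30. Others, named after their values were seen, were Dnah8, an axonemal dynein chain, Prok1, the ligand prokineticin 1, Sftpd, the lectin surfactant protein D, Cldn8, a tight junction claudin, and Gbp8, a guanylate-binding protein. Their ratios of the lowest of the 5 libraries to the highest of the 3 were 253, 191, 70.8, 49.2 and 28.6. These libraries were set side by side because of the values themselves, so the counts carry no test.

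The genes around the members were examined as lists from general knowledge of each pathway. In cKO against Flox with all 4 libraries, 13.8% of all genes had an adjusted p under 0.05, 12.8% lower and 1.02% higher, 41.5% an unadjusted p under 0.05, and log2 fold changes had a median of -0.34 over all genes. In the serotonin list without Tph1 and Tph2, 11 of 15 genes were tested and 0 met both thresholds in limma, with 3 at an unadjusted p under 0.05. The adjusted p was under 0.05 for 2, both lower in cKO. These were Gch1, which makes the cofactor of the hydroxylases, with a log2 fold change of -0.83 (SE 0.24, limma adjusted p = 0.0414), and Maob, which breaks amines down, with -0.55 (SE 0.17, limma adjusted p = 0.0423). Neither had an adjusted p under 0.05 after median-of-ratios scaling, where the median of the list moved from -0.31 to 0.07, with that of all genes. Ddc, which converts 5-hydroxytryptophan to serotonin, was abundant in every chow library, at 80.4 to 99.3 FPKM in cKO, 127 FPKM in Flox16 and 72.2, 148 and 152 FPKM in the other Flox libraries. Slc18a1, a vesicular monoamine transporter, was at 0.968 to 2.25 FPKM over the 8 libraries. None of the 11 genes tested divided the libraries as Tph1 did. Slc6a4, the serotonin transporter, was under the minimum mean and was not tested, and it was at 0.447 to 1.21 FPKM in cKO, 0.290 FPKM in Flox16 and 0.176, 0.109 and 0.0570 FPKM in the other Flox libraries, so that it did divide them, at low levels. Of 14 serotonin receptors, 11 were listed and 0 reached a mean of 0.5 FPKM in the chow table.

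Receptors other than Prlr were mostly even. Ghr, the growth hormone receptor, was at 23.9 to 28.7 FPKM in cKO, 29.9 FPKM in Flox16 and 33.8 to 50.2 FPKM in the other Flox libraries (log2 fold change -0.64, SE 0.18, limma adjusted p = 0.0329), the 1 of 7 receptors tested with an adjusted p under 0.05. Its direction is that of the median of all genes, and its adjusted p was 0.152 after median-of-ratios scaling. Csf2rb, the shared β chain of the receptors for IL-3, IL-5 and GM-CSF, was at 8.68 to 18.6 FPKM in cKO and 9.45 FPKM in Flox16, against 0.277, 0.160 and 0.630 FPKM in Flox17, Flox20 and Flox21. It did not pass the test with all 4 Flox libraries (log2 fold change 3.25, SE 0.92, limma adjusted p = 0.0596) and its log2 fold change was 4.14 (SE 0.24) without Flox16.

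The signalling chain between the receptor and the nucleus showed no such division. Among 10 kinases and Stat factors tested, 0 met both thresholds, and Jak1 had an adjusted p under 0.05 (log2 fold change -0.65, SE 0.18, limma adjusted p = 0.0326, and 0.092 after median-of-ratios scaling). Jak2 was at 2.04 to 2.62 FPKM in cKO and 2.72 to 4.04 FPKM in Flox, Flox16 included. Stat5a was at 1.60 to 2.39 FPKM in cKO and 1.34 to 3.45 FPKM in Flox, and Stat5b at 6.09 to 8.18 FPKM in cKO and 5.94 to 10.4 FPKM in Flox. Their log2 fold changes were -0.21 (SE 0.24) and -0.31 (SE 0.20). These are RNA levels, and phosphorylation of the factors was not analysed here. Flox20 and Flox21 stood out instead, with Stat3 at 80.5 and 83.5 FPKM against 17.3 to 29.3 FPKM in the other chow libraries, and its target Socs3 at 19.5 and 17.1 FPKM against 1.65 to 2.72 FPKM.

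Among 15 other Socs genes and brakes of the pathway, 0 met both thresholds in cKO against Flox and 3 had an adjusted p under 0.05, all lower, of which Ptpn1, a phosphatase acting on Jak2, had a log2 fold change of -0.97 (SE 0.23, limma adjusted p = 0.0209). After median-of-ratios scaling or with the acinar share as a covariate, 0 of the brakes had an adjusted p under 0.05, and that of Ptpn1 was 0.0706 and 0.840. With that covariate 0 of all 11804 genes met both thresholds, so its p-values set no gene apart. The list of 16 other Stat5-induced genes tested also had 0, and its 2 members with an adjusted p under 0.05 were the cyclins Ccnd1 (-0.75, SE 0.21, limma adjusted p = 0.0319) and Ccnd2 (-0.71, SE 0.15, adjusted p = 0.0162), both lower in cKO. Ccnd2 was at 49.9 to 68.6 FPKM in cKO and 83.0 to 99.9 FPKM in Flox, where Flox16 was at 85.9 FPKM and stood with its own group. After median-of-ratios scaling the adjusted p of Ccnd1 was 0.126 and that of Ccnd2 0.0781. In this list 3 of the 16 genes were higher in all 4 cKO libraries and Flox16 than in the other Flox libraries, which 3.04% of all genes were. Igfals, a carrier of IGFs in blood, was at 26.9 to 29.1 FPKM in cKO, 34.3 FPKM in Flox16 and 10.6, 22.5 and 20.9 FPKM in the others (log2 fold change 0.45, SE 0.27, limma adjusted p = 0.199). Xbp1 and Onecut1 are the other two, and their nearest libraries were closer, at 156 against 143 FPKM and 0.601 against 0.464 FPKM. Bcl2l1, Pim1 and Socs1 did not pass the test, with log2 fold changes of -0.49, -0.36 and -0.41. The medians of both lists, -0.41 and -0.38, were near that of all genes, and were -0.06 and -0.02 after median-of-ratios scaling. Cish and Socs2 were thus higher in the cKO libraries than in 3 Flox libraries while Socs1 and Socs3 were not, at 0.281 to 0.419 FPKM of Socs1 and 1.65 to 2.72 FPKM of Socs3 in cKO.

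A list of 16 islet genes of pregnancy held more genes that divided the chow libraries as the members did. Of 15 tested, 0 met both thresholds with all 4 Flox libraries, and the median log2 fold change was 0.73, or 1.11 after median-of-ratios scaling. Without Flox16, 8 were higher past both thresholds and 1 was lower, against 1.34% and 2.82% of all genes. In 8 of the 15, against 3.04% of all genes, all 4 cKO libraries and Flox16 were above the other 3 Flox libraries. Ivd, Ehhadh and Tnfrsf11b are among these 8. Cldn8 was at 99.3 to 129 FPKM in cKO, 164 FPKM in Flox16 and 0.713 to 2.02 FPKM in the other Flox libraries, and Igfbp5, an IGF-binding protein, at 16.5 to 32.3 FPKM, 25.7 FPKM and 2.58 to 3.57 FPKM. Chgb, the granule protein secretogranin I, was at 1242 to 1416 FPKM in cKO, 1337 FPKM in Flox16 and 383 to 692 FPKM in the other Flox libraries. Other members of the list did not divide the libraries in this way. Slc2a2, the glucose transporter Glut2, was at 103 to 152 FPKM in cKO and 147 to 174 FPKM in Flox with Flox16 at the low end, and did not meet both thresholds (log2 fold change -0.47, SE 0.14, limma adjusted p = 0.0392). The list was written with the members' results known and is no independent evidence of its direction. Its counts without Flox16 were also made after that library was set apart by its values.

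Cell cycle genes were higher in cKO but did not divide the Flox libraries in this way. Of 12 genes listed, 7 were tested, 2 met both thresholds and 6 had an adjusted p under 0.05, all higher. Mki67, Ccnb1, Ccnb2 and Birc5 had a Flox mean under 0.5 FPKM and passed the minimum mean only through cKO. The direction of the count is thus partly set by that filter. Ube2c, a ubiquitin-conjugating enzyme of mitosis, was at 1.46 to 1.88 FPKM in cKO, 0.444 FPKM in Flox16, 1.10 FPKM in Flox17 and 0.258 and 0.202 FPKM in Flox20 and Flox21 (log2 fold change 1.20, SE 0.23, limma adjusted p = 0.0129). Ccnb1, cyclin B1, was at 0.531 to 1.51 FPKM in cKO and 0.110, 0.638, 0.0518 and 0.0135 FPKM in the Flox libraries in their numbered order (log2 fold change 1.11, SE 0.25, adjusted p = 0.0207). Flox16 was low for both, unlike for the 7 members, and the library with the next highest level, Flox17, also had the highest acinar share of its group. In the HFD table the cell cycle sum was highest in Ctrl5, at 37.6 FPKM with an acinar share of 2.01%. It was lowest there in Ctrl3, at 2.08 FPKM with an acinar share of 68.8%. The part of acinar RNA in these levels was not tested. With the acinar share as a covariate the adjusted p was 0.717 for Ube2c and 0.804 for Ccnb1, in a fit where 0 of all genes met both thresholds. After median-of-ratios scaling it was 0.0456 and 0.0558.

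Relatives of Matn2 and Lrrc55 were low. Matn4, matrilin-4, rose from 1.65, 2.10, 0.584 and 0.451 FPKM in Flox to 2.45 to 2.90 FPKM in cKO (log2 fold change 1.07, SE 0.28, limma adjusted p = 0.0315). It was also at 2.29 and 2.73 FPKM in the acinar-rich Ctrl2 and Ctrl3 and at 0.0395 and 0.177 FPKM in Ctrl1 and Ctrl5. Its adjusted p was 0.0812 after median-of-ratios scaling. With the acinar share as a covariate it was 0.876, in a fit where 0 of all genes met both thresholds. Lrrc38, another BK channel subunit, was at 0.596 to 1.04 FPKM in cKO, 0.944 FPKM in Flox16 and 0.129 to 0.297 FPKM in the other Flox libraries. Kcnma1, the BK channel itself, was at most 3.62 FPKM in cKO and at least 3.65 FPKM in Flox (log2 fold change -0.31, SE 0.18).

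Without Flox16, 2.95% of all genes had an adjusted p under 0.05 and were higher, and 21.3% were lower. That library was set apart because of values in these same data, so the calls made without it are a description. For genes that divide the chow libraries as the members do, such as Csf2rb, they restate that choice. Of the serotonin list 0 genes were then higher and 1 lower, which was Gch1, and Maob no longer passed. Among the receptors Csf2rb was higher, past both thresholds, and Ghr lower. Of the kinases and Stat factors 2 were lower, Jak1 and Stat6. Of the brakes 4 were lower, Socs1, Socs6, Socs7 and Ptpn1, and Ptpn1 then met both thresholds (log2 fold change -1.16, SE 0.22). Of the other Stat5-induced genes 6 were lower and 1 higher, which was Igfals (0.70, SE 0.22). The cell cycle counts were again 2 past both thresholds and 6 with an adjusted p under 0.05, and of the 3 relatives tested Matn4 and Lrrc38 were higher. Csf2rb, Lrrc38, Mki67, Ccnb1, Ccnb2 and Birc5 passed the minimum mean in this fit only through cKO.

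**Figure D5:**
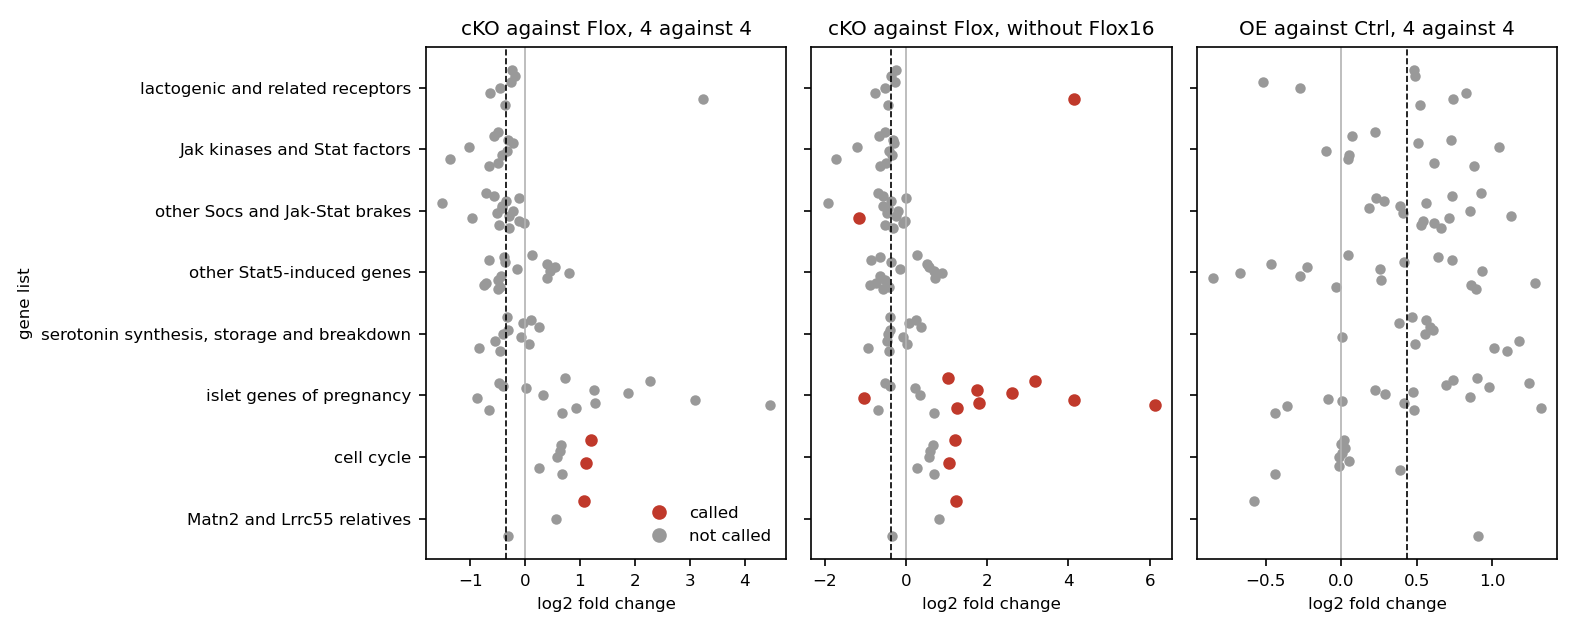
Log2 fold changes of the genes tested in 8 lists, 1 point per gene, for cKO against Flox with all 4 libraries (left), without Flox16 (middle) and OE against Ctrl (right), with called genes in red and the median of all genes as a dashed line (-0.34, -0.36 and 0.44). Called genes of the list of islet genes of pregnancy appear without Flox16, where 8 are higher and 1 lower.

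In OE against Ctrl, 0 genes of these lists met both thresholds or had an adjusted p under 0.05 in limma, as did 4 of all 12132 genes (0.033%), while 6 of the 86 list genes tested and 6.41% of all genes had an unadjusted p under 0.05. List medians were 0.56 for serotonin synthesis, storage and breakdown, 0.49 for receptors, 0.37 for kinases and Stat factors, 0.56 for brakes, 0.26 for other Stat5-induced genes, 0.48 for islet genes of pregnancy, 0.00 for cell cycle genes and 0.16 for the 2 relatives tested, against 0.44 for all genes. After median-of-ratios scaling, with all genes at -0.01, they were 0.04, 0.05, -0.09, 0.12, -0.26, -0.01, -0.21 and -0.30. Htr3a, the subunit of the serotonin-gated channel, was the 1 serotonin receptor above the minimum mean there. It was at 0.885 to 1.21 FPKM in OE libraries and at 0 to 0.0325 FPKM in Ctrl libraries, without overlap (log2 fold change 1.54, SE 0.29, limma adjusted p = 0.0834). Its mean was 0.996 FPKM in OE and 0.0123 FPKM in Ctrl, so it passed the minimum mean only through OE. Htr3a met both thresholds in 5 of the 12 alternatives in which it was tested, among them without Ctrl3, without Ctrl5 (adjusted p = 0.0366) and with the acinar share as a covariate (adjusted p = 0.00109), and the adjusted p ran from 0.00109 to 0.577 over the 12. Being tested depended on its OE level, so that count is no independent support. Prph, from a separate list of 8 peripheral neuron genes, was at 1.99 to 2.83 FPKM in OE and at most 0.135 FPKM in Ctrl. The sum of that list was less apart, at 38.4 to 42.2 FPKM in OE and 4.43 to 32.1 FPKM in Ctrl, the highest in Ctrl1. Of its 4 genes tested, 2 were higher past both thresholds, which 0.033% of all genes met. Prph, too, passed the minimum mean only through OE. The part of neurons in the level of Htr3a was not tested.

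Cell types other than β cells that are known to make Tph1 were looked for through their markers. Mast cell genes summed to 1.04 to 1.51 FPKM in cKO, 1.86 to 3.44 in Flox, 1.36 to 3.83 in Ctrl and 2.71 to 3.02 in OE libraries. Platelet genes summed to 1.01 to 1.94, 1.06 to 3.15, 1.35 to 4.40 and 2.61 to 4.24 FPKM in the same order. Summed mast cell genes were at most 1.86 FPKM in the 5 libraries in which Tph1 was abundant and at least 2.36 FPKM in the other 3 chow libraries, and the platelet sums overlapped. Fcer1a and Tpsb2 of the mast cell list and Treml1 of the platelet list were listed at 0 in those 5 libraries. Other genes of both lists were above 0 there, as the sums show. Intestinal epithelium genes summed to at most 37.4 FPKM in cKO and 31.4 to 56.7 FPKM in Flox, the highest in Flox17. That list held no gene particular to the hormone-making cells of the gut, and the cell source of Tph1 was not tested. Among the genes of pituitary and placental hormones, Prl and Gh were not analysed here for the chow libraries, and Prl3d1, placental lactogen I, was listed above 0 in cKO38 alone, at 0.0780 FPKM.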

How the data were processed

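Islet RNA of 16 libraries, 4 per group by GEO's labels, was sequenced on an Illumina NovaSeq. The authors deposited FPKM per gene in a table for cKO and Flox and another for OE and Ctrl. The submitters' notes name mm10, and the aligner is not given in the sources used here. The tables were fitted separately on log2(FPKM + 0.5) with limma 3.58.1 in R 4.3.3 (variance trend, robust empirical Bayes), where the mean was 0.5 FPKM or more. P-values are two-sided, with Benjamini-Hochberg adjustment over all genes tested. Calls needed an adjusted p under 0.05 with a log2 change beyond 1 in either direction. No source says that libraries are separate animals, so p-values measure the spread between these libraries. The members and lists were chosen with earlier results of these data known. Named genes are the members, the 10 genes most like Tph1 (mean of at least 1 FPKM in both tables), genes of the lists that were called or abundant, and genes a result turns on. Results of some genes that this rule names are not reported here, though counts over the lists include them. Gene coordinates are from GENCODE on GRCm38. The fits were tested on simulated data with the spread of these libraries. Of 100 genes changed by 2 on the log2 scale, 94 were called in cKO against Flox and 38 in OE against Ctrl. Of 100 changed by 3, 99 and 84 were called. In OE against Ctrl a change may thus be missed. Only genes with a mean log2(FPKM + 0.5) above 2 were changed, and the spread was drawn independently for each gene. These rates therefore do not apply to low genes or to differences between libraries that many genes share. Alternatives were other pseudocounts and minimum means, median-of-ratios scaling (each library divided by its median ratio to the geometric mean of its table), division by the share of FPKM outside the acinar genes, that share as a covariate, fits without trend and robust steps, the replicate number as a block, the 3 libraries per group of the study's heatmaps, and libraries left out.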

Additional observations from a re-analysis of the deposited data

Results flagged for a closer look

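In groups of 4 libraries, 6 of 40 groups examined had a library whose gap to the nearest other exceeded Dixon's 95% value. Chance gives about 1 in 20 for groups not chosen by their values, a rate that does not apply here, since the members were chosen for high levels in Flox16 and the gaps of Flox16 restate that choice. The library labelled Flox16 was such a library within Flox for Cish at 56.9 FPKM, Socs2 at 8.33 FPKM, Tph1 at 112 FPKM, Matn2 at 109.6 FPKM and Lrrc55 at 42.9 FPKM. Prlr and Tph2 were also highest in Flox16, at 63.1 and 4.35 FPKM, without passing that value. The sixth was Tph1 in Ctrl2, at 0.0189 FPKM where the other 3 Ctrl libraries were listed at 0, so that any value above 0 there would have passed.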

How the results depend on the processing

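The number of genes called in cKO against Flox, 155 with all libraries, was 84 with a pseudocount of 1, 307 with 0.1, 0 over every gene with a mean above 0 FPKM (limma, 5539 at an unadjusted p under 0.05), 36 after median-of-ratios scaling (26 higher and 10 lower, against 40 and 115), 28 per FPKM outside the acinar genes, 272 without trend and robust fitting, 0 with the acinar share as a covariate (772 at an unadjusted p under 0.05) and 699 with the 3 libraries of the heatmaps. Leaving out 1 library gave 18 (without cKO9) to 507 (without Flox17) genes, with 491 without Flox16, and leaving out both Flox16 and Flox17, an alternative chosen after seeing the data, gave 1272. The replicate block gave 268. The replicate numbers were not taken as pairs, since deviations of same-numbered libraries correlated at -0.215 to 0.122 in the chow and -0.132 to 0.102 in the HFD table. In OE against Ctrl the count of 4 was 10 over every gene, 469 with the acinar covariate, 4 to 5 without 1 library and 649 without Ctrl2 and Ctrl3 (chosen after seeing the data), where Socs2 moved from 0.57 to -0.018. In cKO against Flox the 7 members kept their direction in all alternatives run, which restates how they were chosen. Prlr came nearest to no change, with a lowest log2 fold change of 0.066 with 1 library left out and 0.019 in the other alternatives. In OE against Ctrl, Tph2 changed sign in 6 of 18 alternatives and Socs2 in 1. Median-of-ratios scaling moved the all-gene median of log2 fold changes from -0.34 to -0.00086 in the chow and from 0.44 to -0.0064 in the HFD table. Depth in reads is unknown, so the counting error of the low Tph1 and Lrrc55 values cannot be given. Diet, virus and experiment cannot be told apart between the tables.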
